A study of Mus musculus with 16 samples.

Results

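The sarcomere genes of fast muscle fibres described here are 10 genes chosen by symbol: Myh1, Myh2, Myh4, Mylpf and Mybpc2 of the thick filament, Tnnc2, Tnni2 and Tnnt3 of the thin filament, and Actn3 and Myoz1 of the Z-disc. They are 10 of the 23970 gene symbols in the table of quadriceps expression, and all 10 are among the 11256 genes that passed the filter on low values and were tested. Expression is given as FPKM, a count of sequenced fragments scaled to transcript length and to the mapped total of the library, so that levels can be compared between genes.

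The tissue was quadriceps, a thigh muscle, from wild type male C57BL/6NTac mice aged 16 weeks, with 4 biological replicates in each of 4 groups and 1 library per mouse. CON-pre and CON-post mice were fed a control diet with 10% of kcal from fat, and HFD-pre and HFD-post mice a high-fat diet with 60% of kcal from fat, for 10 weeks. The post groups were sampled 3 h after a single maximal treadmill run to exhaustion and the pre groups under basal conditions. The comparisons ask how the high-fat diet (HFD) and acute exercise are associated with muscle gene expression; different mice were sampled before and after exercise, so no mouse is its own control. The whole muscle was sequenced, in which fewer fibres of a type and less RNA per fibre cannot be told apart.

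A sarcomere is the contractile unit of a muscle fibre. Myosin heavy chains form the motors of the thick filament, the troponin complex on the thin filament switches contraction on when calcium binds, and the Z-disc anchors the thin filaments. Most of these parts exist as separate fast and slow genes, and fast fibres are further divided by the heavy chain they use: Myh2 in type IIA, Myh1 in type IIX and Myh4 in type IIB fibres, in the order from more oxidative to more glycolytic. Mouse quadriceps is a mostly fast muscle.

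The fast heavy chain genes lie side by side. In the GRCm38.p6 annotation of RefSeq, Myh2 (chr11:67171027-67197517), Myh1 (chr11:67200102-67224577) and Myh4 (chr11:67237812-67260447) follow each other on the plus strand within 89.4 kb, with the long non-coding RNA gene Myhas (chr11:67224196-67237281), which begins inside Myh1 and ends before Myh4. The other members are at chr2:164777161-164779734 (Tnnc2), chr7:127208848-127214288 (Mylpf), chr7:44501699-44524715 (Mybpc2), chr7:142441816-142444410 (Tnni2), chr7:142498771-142516213 (Tnnt3), chr19:4861216-4877909 (Actn3) and chr14:20649102-20656540 (Myoz1). Tnni2, a fast troponin I, and Tnnt3, the fast troponin T, also lie near each other on chromosome 7.

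RefSeq promoter sequences (250 bases before to 50 after a transcription start, GRCm38.p6) were matched for 6 of the 10 genes and not for Tnni2, Tnnt3, Actn3 and Myoz1. The promoters of the heavy chain genes are shown because Myh4 was negatively correlated with Myh1 and Myh2 among the libraries. Capitals mark the longest run of bases found in all 3 of them, matches to the E-box CANNTG (both strands), the core of sites bound by MyoD-family factors, and matches to TATAAA, the letters of a TATA box (both strands).
Myh2 (chr11:67170777-67171076, plus strand): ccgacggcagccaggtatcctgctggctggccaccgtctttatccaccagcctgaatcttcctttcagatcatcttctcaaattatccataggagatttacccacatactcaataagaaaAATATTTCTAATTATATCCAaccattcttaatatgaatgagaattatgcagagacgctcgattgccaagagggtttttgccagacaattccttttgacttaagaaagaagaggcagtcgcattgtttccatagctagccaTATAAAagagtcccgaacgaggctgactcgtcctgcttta
Myh1 (chr11:67199852-67200151, plus strand): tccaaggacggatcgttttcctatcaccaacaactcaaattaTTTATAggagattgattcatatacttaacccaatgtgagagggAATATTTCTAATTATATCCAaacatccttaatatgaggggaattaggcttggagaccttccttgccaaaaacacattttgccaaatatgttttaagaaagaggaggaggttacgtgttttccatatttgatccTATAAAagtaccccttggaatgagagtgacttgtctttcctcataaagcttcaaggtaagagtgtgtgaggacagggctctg
Myh4 (chr11:67237562-67237861, plus strand): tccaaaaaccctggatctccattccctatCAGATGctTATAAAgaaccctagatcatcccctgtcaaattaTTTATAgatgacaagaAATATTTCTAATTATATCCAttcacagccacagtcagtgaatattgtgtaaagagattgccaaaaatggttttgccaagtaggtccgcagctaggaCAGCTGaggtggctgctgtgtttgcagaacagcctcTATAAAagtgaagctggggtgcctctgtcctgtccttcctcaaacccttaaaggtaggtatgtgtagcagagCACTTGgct

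The shared run, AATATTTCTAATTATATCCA, is 20 bases long, and of 32544 promoters of this length 3 held it on either strand, those of Myh1, Myh2 and Myh4. It begins at position -163 in Myh4, -165 in Myh1 and -130 in Myh2, counted from the listed start at position 0. The TATAAA match nearest the listed start begins at -31 in Myh4, -32 in Myh1 and 10 in Myh2. The window of Myh2 is thus placed differently around this match, and positions are not directly comparable. Among the heavy chain promoters the E-box letters were found in that of Myh4, at positions -221, -67 and 41. By comparison, 72.3% of all promoters of this length held at least 1 match to the E-box and 13.6% to TATAAA. Such matches are letters in a window and were not measured as binding.

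Mylpf, the fast regulatory light chain of myosin, and Tnnc2, the calcium-binding fast troponin C, are shown because they varied most closely together among the 16 libraries. Capitals again mark E-box and TATAAA letters, of which the first were found once in Mylpf (position -51) and at positions -183 and -88 in Tnnc2, and the second in neither. The listed start of Mylpf lies inside its annotated span, which begins further upstream.
Mylpf (chr7:127211358-127211657, plus strand): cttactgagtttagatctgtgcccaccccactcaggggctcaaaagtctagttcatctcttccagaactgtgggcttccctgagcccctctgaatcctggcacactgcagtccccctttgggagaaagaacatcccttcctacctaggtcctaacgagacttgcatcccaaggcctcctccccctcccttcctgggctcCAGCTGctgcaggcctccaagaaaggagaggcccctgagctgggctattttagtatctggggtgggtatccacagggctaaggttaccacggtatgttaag
Tnnc2 (chr2:164779685-164779984, minus strand): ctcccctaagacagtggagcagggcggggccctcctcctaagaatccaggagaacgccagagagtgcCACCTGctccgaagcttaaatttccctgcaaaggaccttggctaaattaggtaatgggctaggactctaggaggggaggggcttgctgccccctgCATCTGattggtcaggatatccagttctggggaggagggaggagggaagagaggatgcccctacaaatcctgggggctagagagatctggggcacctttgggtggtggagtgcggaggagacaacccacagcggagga

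Library totals ranged from 283575 to 329282 FPKM. The number of reads behind a value is not known from FPKM. The 6 markers of skeletal muscle fibres were abundant, with a summed level of 26365 to 33814 FPKM, and the lowest Pearson r between any pair of libraries was 0.966. Markers of slow fibres summed to 179 to 638 FPKM in CON-pre, 162 to 463 in HFD-pre, 156 to 633 in CON-post and 161 to 670.4 in HFD-post, so mice of the same group differed several-fold in slow-fibre RNA. HFD-post replicate 1 stood apart, with the lowest FPKM sum of all 16 libraries (283575). It also had the lowest FPKM of Myh4, Actn3, Mylpf, Tnnc2, Tnnt3 and Myoz1 and the highest of Myh2. Values without it are given beside the main results of diet and exercise.

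The fast sarcomere genes were among the most abundant transcripts of the muscle. Together they held 15.4% to 20.1% of all FPKM of a library, and 8 to 10 of them ranked among its 50 highest genes. In CON-pre, Tnnt3 had the highest level (15486 ± 829 FPKM, mean ± SD, n = 4), above the range of every other member. Tnnc2 (11348 ± 1195 FPKM), Mylpf (10872 ± 1479 FPKM), Myh4 (9039 ± 498 FPKM) and Tnni2 (8369 ± 965 FPKM) followed, and neighbours in this order overlapped in their ranges.

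Below these levels, and apart from them, came Actn3, the fast Z-disc actinin, at 2572 ± 109 FPKM. Mybpc2, the fast myosin-binding protein C, at 1403 ± 80.4 FPKM, and Myoz1, a Z-disc protein that binds calcineurin, at 1287 ± 71.6 FPKM, overlapped each other. Myh1 (542 ± 87.9 FPKM) and Myh2 (254 ± 37.6 FPKM) were the lowest members. The order was the same in HFD-pre and HFD-post, and in CON-post the means of Myh4 and Mylpf, whose ranges overlapped, changed places.

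**Figure D1:**
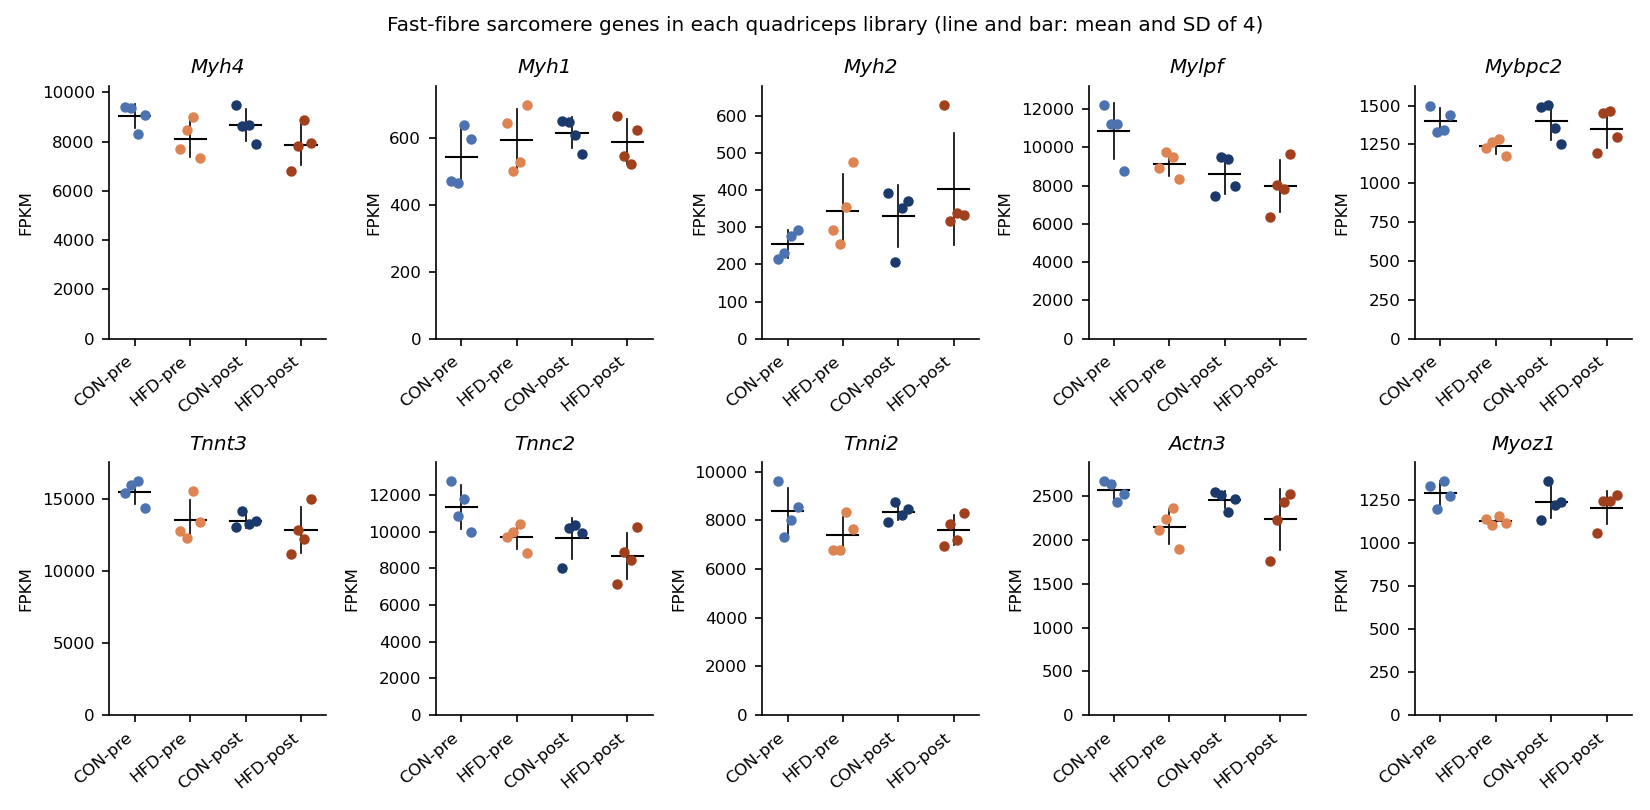
FPKM (vertical axes, from 0) of each fast-fibre sarcomere gene in the 4 libraries of each group; points are libraries and the line and bar are the mean and SD. Myh2 in HFD-post has a point at 631 FPKM above the other libraries of its group (316 to 338), and Actn3, Mybpc2 and Myoz1 have no overlap between CON-pre and HFD-pre.

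Before exercise, HFD-fed mice had lower mean levels of 8 of the 10 genes than CON-fed mice, by 0.16 to 0.26 on the log2 scale, and higher mean levels of Myh1 and Myh2. None passed an adjusted p of 0.05 over all genes tested (limma with Benjamini-Hochberg adjustment, lowest adjusted p = 0.455), where 0.346% of all genes did. At an unadjusted p under 0.05, 4 members were lower and 0 were higher, against 5.76% and 2.5% of all genes. The median over the members was -0.18, beside -0.034 over all genes tested and -0.023 over the 320 genes that averaged 100 FPKM or more. The count of 4 ranged from 1 (without HFD-pre replicate 4, Myoz1) to 6 (without HFD-pre replicate 3 or without HFD-post replicate 1) when single libraries were left out, and was 2 without CON-pre replicate 1, CON-pre replicate 3 or HFD-pre replicate 1. The count of 0 became 1 (Myh2) without HFD-pre replicate 2. Under the other settings the number of lower members was 0 with every library scaled to the same sum, with quantile normalization or with no filter on low values, and up to 7 with array weights or with the slow-fibre score as a covariate. The 6 general markers of skeletal muscle fibres, none of them a member, had a median of -0.19, and 5 of 6 had lower means. At an unadjusted p under 0.05, 3 of the 6 were lower and 1, Mb, was higher (limma). Of these markers 0 passed (limma, lowest adjusted p = 0.329, Ckm, creatine kinase of muscle). The median of their summed level was 32461 FPKM in CON-pre and 28462 FPKM in HFD-pre. The median of the members depended on the scaling: with every library scaled to the same sum of FPKM it was -0.097, and after quantile normalization -0.035. HFD-pre libraries had lower FPKM sums (294867 to 303652) than CON-pre libraries (305490 to 327559). Slow-fibre markers had lower means in HFD-pre in 6 of 6 genes and passed in 0 of 6 (limma; 0 with an unadjusted p under 0.05). Of 6 adipocyte markers Lep rose and Cfd fell (limma, adjusted p = 0.0138 and 0.00440), and the others did not pass. The median log2 fold change of the 6 was -0.013. Their summed level was 123 to 197 FPKM in CON-pre and 63.6 to 76.6 FPKM in HFD-pre, a sum mostly made by Cfd in CON-pre (means 105 and 27.4 FPKM), while Adipoq was at 17.4 and 18.3 FPKM. Of the other marker lists 0 genes passed, and 1 endothelial, 1 smooth muscle and 1 blood gene were higher and 1 fibroblast and tendon gene lower at an unadjusted p under 0.05 (limma): 5 of 5 endothelial genes (median 0.17) and 4 of 4 smooth muscle genes (median 0.19) had higher means in HFD-pre, and 4 of 4 macrophage genes (median -0.27) and 4 of 5 blood genes (median -0.47) lower means. The part of these cells in the values was not tested. With the slow-fibre or the adipocyte marker score of each library as a covariate, the median of the members was -0.22 or -0.18.

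Among the Z-disc genes, Actn3 was at 2674, 2646, 2437 and 2529.5 FPKM in CON-pre and at 2112, 2239, 2364 and 1894 FPKM in HFD-pre. Every HFD-pre library was below every CON-pre library, with a log2 fold change of -0.26 ± 0.098 (SE, limma, adjusted p = 0.455). Myoz1 was at 1328, 1194, 1356 and 1269 FPKM in CON-pre and at 1138, 1103, 1156 and 1116 FPKM in HFD-pre, again without overlap, with a log2 fold change of -0.19 ± 0.071 (limma, adjusted p = 0.455). In the thick filament, Mybpc2 was the third gene without overlap, at 1500.1, 1332, 1341 and 1438 FPKM in CON-pre and 1224, 1267, 1285 and 1176 FPKM in HFD-pre (log2 fold change -0.18 ± 0.078, limma, adjusted p = 0.546). Of all genes tested, 3.94% were lower without overlap in this comparison and 1.68% higher. The lack of overlap depended on the scaling. Divided by the FPKM sum of each library, Actn3 and Mybpc2 overlapped between the groups and Myoz1 did not.

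The other thick filament genes overlapped between the diets. Mylpf was at 12239.5, 11241, 11238 and 8769.6 FPKM in CON-pre and at 8909, 9762, 9522 and 8365 FPKM in HFD-pre (log2 fold change -0.24 ± 0.13, limma, adjusted p = 0.649). CON-pre replicate 4 lay within the range of HFD-pre and the other 3 CON-pre libraries lay above it. Myh4, the IIB heavy chain, was at 9386, 9362, 8319 and 9090.3 FPKM in CON-pre and at 7691, 8470.2, 9008 and 7324 FPKM in HFD-pre (log2 fold change -0.16 ± 0.088, limma, adjusted p = 0.680).

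Myh2, the IIA heavy chain, went the other way, at 215, 231, 277 and 294 FPKM in CON-pre and at 292, 255, 356 and 478 FPKM in HFD-pre. The groups overlapped, the highest value was that of HFD-pre replicate 4, and the log2 fold change was 0.41 ± 0.24 (95% interval -0.100 to 0.92, limma, adjusted p = 0.708), or 0.24 without HFD-pre replicate 4. Myh1 was at 470.1, 465, 637 and 597 FPKM in CON-pre and at 643, 501, 528 and 698 FPKM in HFD-pre, with a log2 fold change of 0.13 ± 0.12 that lay between 0.045 (without HFD-pre replicate 4) and 0.21 (without CON-pre replicate 3) when single libraries were left out.

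All 3 troponin genes had lower means in HFD-pre. Tnnt3, which binds the complex to tropomyosin, was at 15387, 15963, 16233 and 14361 FPKM in CON-pre and at 12809.9, 12316, 15554 and 13381 FPKM in HFD-pre (log2 fold change -0.20 ± 0.090, limma, adjusted p = 0.566). Tnnc2 was at 12759, 10858, 11789.5 and 9985 FPKM in CON-pre and at 9701, 9982, 10405 and 8827 FPKM in HFD-pre (log2 fold change -0.22 ± 0.11, limma, adjusted p = 0.643). For Tnni2, the inhibitory subunit, means were 8369 ± 965 and 7383 ± 755 FPKM (SD, n = 4). In each of these genes at least 1 HFD-pre library lay within the range of CON-pre.

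**Figure D2:**
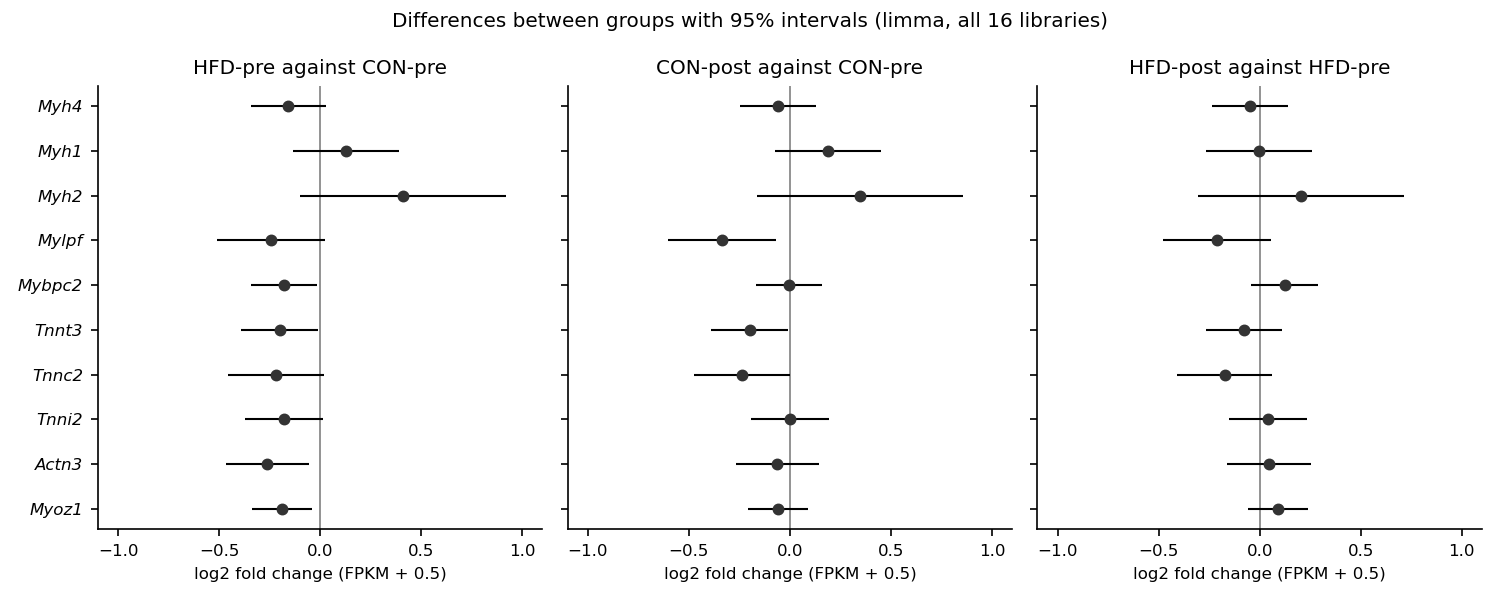
Log2 fold changes of log2(FPKM + 0.5) with 95% intervals from limma (horizontal axes) for each gene in 3 comparisons, from a fit of all 16 libraries. In HFD-pre against CON-pre 8 genes lie below 0 and Myh1 and Myh2 above it, and Mylpf is the lowest gene in both comparisons of exercise.

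After exercise, Mylpf and Tnnc2 had the lowest values relative to rest in both diets, and 0 members passed the adjusted threshold in CON-post against CON-pre (lowest adjusted p = 0.287, limma) or HFD-post against HFD-pre (lowest adjusted p = 0.545), where 1.11% and 0.542% of all genes did. At an unadjusted p under 0.05, 3 members (Mylpf, Tnnc2 and Tnnt3) were lower in CON-post than in CON-pre, and 0 were in HFD-post against HFD-pre. Of all genes tested, 5% and 3.22% were lower by this measure and 6.13% and 8.5% higher. In CON the count of 3 ranged from 0 (without CON-pre replicate 1 or without CON-post replicate 1) to 3, and was 1 without CON-pre replicate 2, CON-pre replicate 3, HFD-pre replicate 4, CON-post replicate 4 or HFD-post replicate 2. With quantile normalization or no filter on low values it was 0. The number of members higher, 0, became 1 without CON-pre replicate 3 (Myh1) or without CON-post replicate 2 (Myh2). In HFD the counts of 0 rested on single libraries: without HFD-post replicate 1 Mybpc2 and Myoz1 were higher at an unadjusted p under 0.05, and without HFD-post replicate 4 Mylpf and Tnnc2 were lower. They also depended on the processing: 2 members were lower with upper-quartile scaling, median-of-ratios scaling or the adipocyte score as a covariate. After quantile normalization 1 member was higher. The medians over the members were -0.059 and 0.018, beside -0.0058 and 0.035 over all genes tested, and the second was 0.0019 without HFD-post replicate 1. The first comparison shares the CON-pre libraries with the comparison of diets at rest, and the second the HFD-pre libraries. Over both diets 3 members (Mylpf, Tnnc2 and Tnnt3) were lower at an unadjusted p under 0.05 and 0 passed the adjusted threshold, beside 6.8% of all genes lower and 11.7% higher by the first measure and 3.86% past the adjusted threshold. Without HFD-post replicate 1 the count was 2, Mylpf and Tnnc2, since Tnnt3 had an unadjusted p of 0.0940 in place of 0.0436 (limma), and it was 2 or 3 without each other library. With quantile normalization, where 1 member was instead higher, or no filter on low values it was 0. Myh2 was higher at an unadjusted p under 0.05 (limma) without HFD-pre replicate 4 or without CON-post replicate 2. With the adipocyte score as a covariate 1 member was higher by this measure. Of the markers of other cells, Pecam1 (1 of 5 endothelial genes) and Tagln (1 of 4 smooth muscle genes) rose over both diets (limma, adjusted p = 0.00141 and 0.0215), while 3 of 5 endothelial genes had lower means (median of the 5 -0.0097) and 4 of 4 smooth muscle genes higher means (median 0.30). All 6 adipocyte markers had higher means with exercise over both diets (median 0.27) and in HFD-post against HFD-pre (median 0.48), of which 0 passed and 1 had an unadjusted p under 0.05 in each (limma). With the adipocyte score as a covariate the median of the members was -0.045 in HFD-post against HFD-pre. The part of the endothelial and smooth muscle cells in the values was not tested.

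Mylpf was at 7485, 9529, 9399 and 7971 FPKM in CON-post, beside the CON-pre values above, and the log2 fold change was -0.34 ± 0.13 (95% interval -0.60 to -0.070, limma, adjusted p = 0.287). It was at 6338, 8029.8, 7834 and 9676 FPKM in HFD-post, with a log2 fold change of -0.21 ± 0.13 against HFD-pre (limma, adjusted p = 0.545), and of -0.11 ± 0.12 without HFD-post replicate 1. HFD-post replicate 1 was the lowest of these libraries and HFD-post replicate 4 lay within the range of HFD-pre. Over both diets together the log2 fold change of Mylpf was -0.27 ± 0.089 (limma, adjusted p = 0.101), and without HFD-post replicate 1 it was -0.22 ± 0.081 (adjusted p = 0.166). This value passed the threshold with upper-quartile scaling (log2 fold change -0.32, adjusted p = 0.0457), without CON-pre replicate 4 (adjusted p = 0.0377) and without HFD-post replicate 4 (adjusted p = 0.0481), and in no other alternative.

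Of the troponin genes, Tnnc2 and Tnnt3 had lower means after exercise than at rest in both diets. Tnnc2 was at 8009, 10199.7, 10390.5 and 9953 FPKM in CON-post and at 7155, 8875, 8446 and 10248 FPKM in HFD-post, with log2 fold changes of -0.24 ± 0.11 in CON and -0.17 ± 0.11 in HFD (limma, adjusted p = 0.447 and 0.577). The value in CON was -0.15 without CON-post replicate 1. Without HFD-post replicate 1 the value in HFD was -0.085 ± 0.11. Tnnt3 was at 13035, 14188, 13276 and 13441 FPKM in CON-post, every library below those of CON-pre, and the log2 fold change was -0.20 ± 0.090 (limma, adjusted p = 0.426). Of all genes tested, 2.53% were lower without overlap in this comparison and 3.29% higher. In HFD the log2 fold change of Tnnt3 was -0.078 ± 0.090, and -0.016 without HFD-post replicate 1. Over all alternatives it lay between -0.16 and 0.032. Tnni2, in contrast, was at 7938, 8735, 8201 and 8449.6 FPKM in CON-post, within the range of CON-pre, and its log2 fold changes were -0.00034 ± 0.091 in CON and 0.040 ± 0.091 in HFD (0.080 without HFD-post replicate 1).

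Among the remaining genes, Myh2 had the largest positive values. It was at 392, 207, 352 and 371 FPKM in CON-post and at 631, 316, 338 and 333 FPKM in HFD-post, with log2 fold changes of 0.35 ± 0.24 in CON and 0.21 ± 0.24 in HFD (limma, adjusted p = 0.649 and 0.789). In CON it was 0.56 without CON-post replicate 2, with an unadjusted p under 0.05. The value in HFD rested on HFD-post replicate 1: without it the log2 fold change was -0.030 ± 0.22. Actn3 was at 2546, 2513, 2326 and 2467 FPKM in CON-post. In HFD-post it was at 1756, 2228, 2439 and 2525 FPKM, and the log2 fold changes were -0.062 ± 0.098 and 0.047 ± 0.098, and 0.16 in HFD without HFD-post replicate 1. Those of Myh1, Myh4, Myoz1 and Mybpc2 lay between -0.059 (Myh4 and Myoz1 in CON) and 0.19 (Myh1 in CON), with 95% intervals that included 0. Without HFD-post replicate 1 the values in HFD were -0.065 for Myh1, 0.020 for Myh4, 0.15 for Myoz1 and 0.18 for Mybpc2 (limma, adjusted p = 0.377 and 0.367 for the last pair).

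In HFD-post against CON-post, 9 of the 10 genes had lower means in HFD-post, with a median log2 fold change of -0.099 beside 0.0038 over all genes tested. None passed the threshold (lowest adjusted p = 0.913, limma), where 0.151% of all genes did, and 0 had an unadjusted p under 0.05, where 6.29% of all genes did. That count was 2 (Actn3 and Tnnc2) without HFD-post replicate 4, and 1 without CON-post replicate 1 (Tnnc2) or HFD-post replicate 3 (Myh4). Without HFD-post replicate 1 the median was -0.029 with 7 genes lower. Of 6 adipocyte markers (median 0.45) Lep rose and Cfd fell past the threshold (limma), and 5 of 5 blood markers had higher means (median 0.37). Lower means were found in 5 of 6 markers of skeletal muscle fibres (median -0.037) and 6 of 6 of slow fibres (median -0.37). Over both exercise states together, 6 members were lower in HFD at an unadjusted p under 0.05, against 6.54% of all genes lower and 3.89% higher, and 0 passed the adjusted threshold, which 0.959% of all genes did. Actn3 had the lowest adjusted p of these members (log2 fold change -0.21 ± 0.069, limma, adjusted p = 0.230). Without HFD-post replicate 1 the number at an unadjusted p under 0.05 was 1, Actn3 (log2 fold change -0.15 ± 0.052, limma, adjusted p = 0.298). It was 1 to 7 over all single libraries left out, with 1 (Actn3) also when CON-pre replicate 1 was left out, 2 for HFD-pre replicate 4 and 3 for HFD-pre replicate 1, HFD-pre replicate 2 or CON-post replicate 2. Under the other settings it was 0 with quantile normalization or no filter, 1 with every library scaled to the same sum and up to 8 with the slow-fibre score as a covariate. The number higher was 0, and 1 (Myh2) without HFD-pre replicate 2, CON-post replicate 1 or HFD-post replicate 2. It was also 1 with every library scaled to the same sum, a replicate block or either marker score as a covariate. Of the markers, 5 of 6 for skeletal muscle fibres (median -0.12) and 6 of 6 for slow fibres (median -0.50) had lower means. Lep rose and Cfd fell past the adjusted threshold (limma), and the part of these cells was not tested.

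Myh2 over both exercise states had a log2 fold change of 0.34 ± 0.17 in HFD against CON (limma, adjusted p = 0.509). With the slow-fibre marker score of each library as a covariate it was 0.52 ± 0.12 (adjusted p = 0.0390), which passed the threshold, and without HFD-post replicate 1, with no covariate, it was 0.22 ± 0.15 (adjusted p = 0.690). The effect of exercise did not pass the test of a difference between the diets for any member: the interaction of diet and exercise gave adjusted p-values of 1.000 for all 10 members, and 0 of all genes tested passed (limma; 356 genes, or 3.16%, had an unadjusted p under 0.05, of which 0 were members). Without HFD-post replicate 1, 2 members had an unadjusted p under 0.05 for the interaction, Myoz1 (0.0310) and Actn3 (0.0497), with adjusted p-values of 0.994 (limma).

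Ratios within a library do not depend on a scaling that multiplies all of its values. In the summed FPKM of Myh1, Myh2, Myh4 and the slow heavy chain Myh7, Myh4 made up 91.5 ± 1.66% (SD, n = 4) in CON-pre, 89.4 ± 2.48% in HFD-pre, 89.8 ± 0.740% in CON-post and 88.4 ± 3.31% in the HFD-post libraries. Myh4 was the main heavy chain transcript in every library. Myh1 made up 5.52 ± 1.09%, 6.59 ± 1.45%, 6.36 ± 0.308% and 6.67 ± 1.18% in the same order, and Myh7 had group means of 0.224% (HFD-pre) to 0.377% (CON-post).

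The share of Myh2 was 2.13, 2.29, 2.99 and 2.93% in CON-pre and 3.38, 2.76, 3.59 and 5.61% in HFD-pre. After exercise it was 3.70, 2.18, 3.63 and 4.18% in CON-post and 7.73, 3.62, 3.46 and 3.73% in HFD-post. Groups overlapped in each of the 4 comparisons tested, and the difference of HFD-pre from CON-pre was 1.25 ± 0.655 percentage points (SE, exact two-sided permutation test, p = 0.0857, adjusted p = 0.686 over 16 tests), and 0.657 without HFD-pre replicate 4. The difference of HFD-post from HFD-pre was 0.801 ± 1.20 percentage points, and -0.230 without HFD-post replicate 1. No share passed (lowest adjusted p = 0.686, exact permutation test), and 4 libraries against 4 allow no p below 0.0286. These shares carry a limit of the counting: 26.7% of the 50-base windows of the Myh1 transcript, 26.9% of those of Myh2 and 18.9% of those of Myh4 are also found in another heavy chain gene, so reads could be split between them. Coding sequences were 91.1% identical between Myh2 and Myh1, 90.1% between Myh1 and Myh4 and 88.1% between Myh2 and Myh4. The levels of the heavy chain genes are uncertain for this reason. The window shares are a guide and not a measure of that uncertainty, because the read length and the treatment of reads with several matches are not given in the sources used here. The other 7 members shared 0% to 0.071% of their windows.

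**Figure D3:**
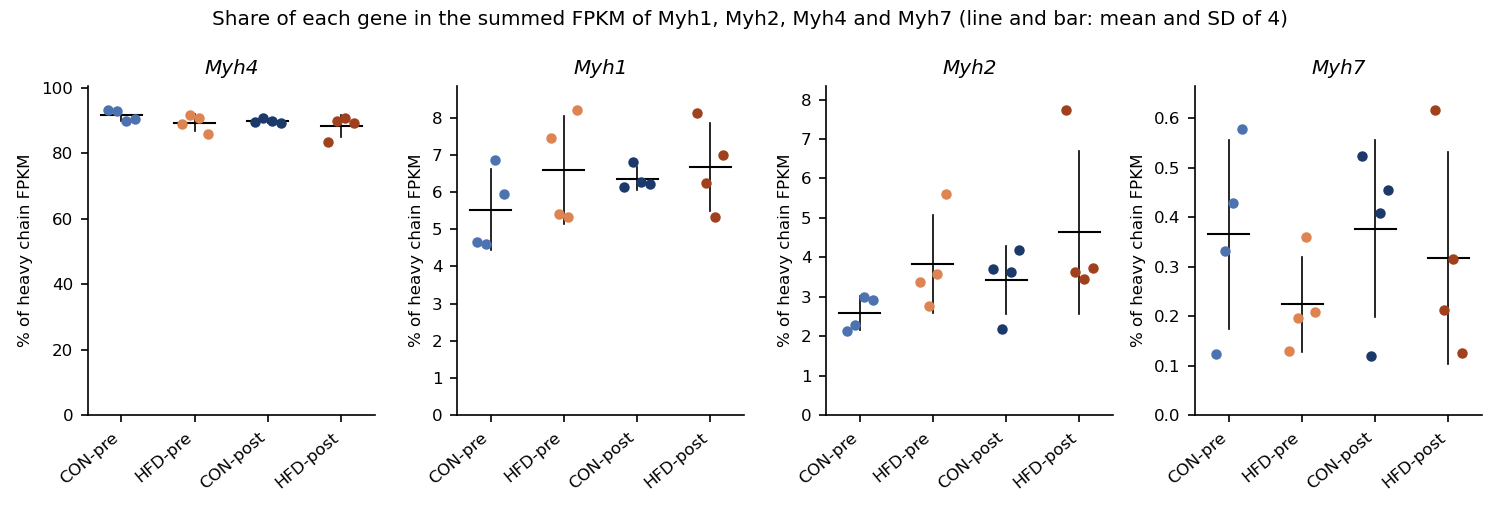
Share of Myh4, Myh1, Myh2 and Myh7 in their summed FPKM (vertical axes in percent, from 0, with a scale for each gene) in every library; points are libraries and the line and bar are the mean and SD of 4. Myh4 lies between 83.5% and 93.1%, and Myh2 in HFD-post replicate 1 is at 7.73%.

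Each fast gene was also set against its paralogue, which is the slow gene for troponins, light chain, heavy chain, Myoz2 and Mybpc1, and for Actn3 the general actinin Actn2. The fast gene was the more abundant of each pair in every library. On the log2 scale the mean ratio over all 16 libraries was 8.69 for Tnni2/Tnni1, 8.40 for Tnnt3/Tnnt1, 7.81 for Tnnc2/Tnnc1 and 6.24 for Mylpf/Myl2, and it was lowest for Mybpc2/Mybpc1 at 2.05. The troponin ratios, Mylpf/Myl2 and Myh4/Myh7 spread by 0.549 to 1.19 (SD) within groups.

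The log2 ratio of Mybpc2 to Mybpc1 was 2.56, 2.35, 2.13 and 2.31 in CON-pre and 2.05, 2.08, 2.01 and 1.66 in HFD-pre, where every HFD-pre library was below every CON-pre library. The difference was -0.39 ± 0.13 (exact two-sided permutation test, p = 0.0286, the smallest that 4 against 4 allows, adjusted p = 0.610 over 32 tests). Mean Mybpc2 was 1403 FPKM in CON-pre and 1238 FPKM in HFD-pre. Mean Mybpc1 was higher in HFD-pre (322 FPKM) than in CON-pre (278 FPKM), so both genes moved the ratio. The log2 ratio of Actn3 to Actn2 was 4.10, 4.10, 3.52 and 3.71 in CON-pre, 3.32, 3.52, 3.55 and 2.96 in HFD-pre and 3.28, 3.54, 3.02 and 3.21 in CON-post. It differed from CON-pre by -0.52 ± 0.20 in HFD-pre and by -0.60 ± 0.18 in CON-post (exact permutation test, p = 0.0571 in both, adjusted p = 0.610). In CON-post against CON-pre the log2 fold change was 0.53 ± 0.13 for Actn2 (limma, adjusted p = 0.0709) and -0.062 ± 0.098 for Actn3, so that most of the difference in the ratio was in Actn2. In HFD-pre against CON-pre Actn2 was at 0.26 ± 0.13 (limma, adjusted p = 0.647) and Actn3 at -0.26 ± 0.098, of about equal size. Over both diets Actn2 rose with exercise (log2 fold change 0.40 ± 0.094, limma, adjusted p = 0.0278). These pairs, Mybpc2/Mybpc1 and Actn3/Actn2, had the lowest p in HFD-pre against CON-pre and do not stand for the others: 5 of the 8 ratios had higher means in HFD-pre than in CON-pre, by 0.59 ± 0.66 for Tnni2/Tnni1, 0.57 ± 0.58 for Myh4/Myh7, 0.50 ± 0.60 for Tnnc2/Tnnc1, 0.39 ± 0.51 for Tnnt3/Tnnt1 and 0.22 ± 0.55 for Mylpf/Myl2 (exact permutation test, adjusted p = 0.944 for each). No ratio passed after adjustment.

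**Figure D4:**
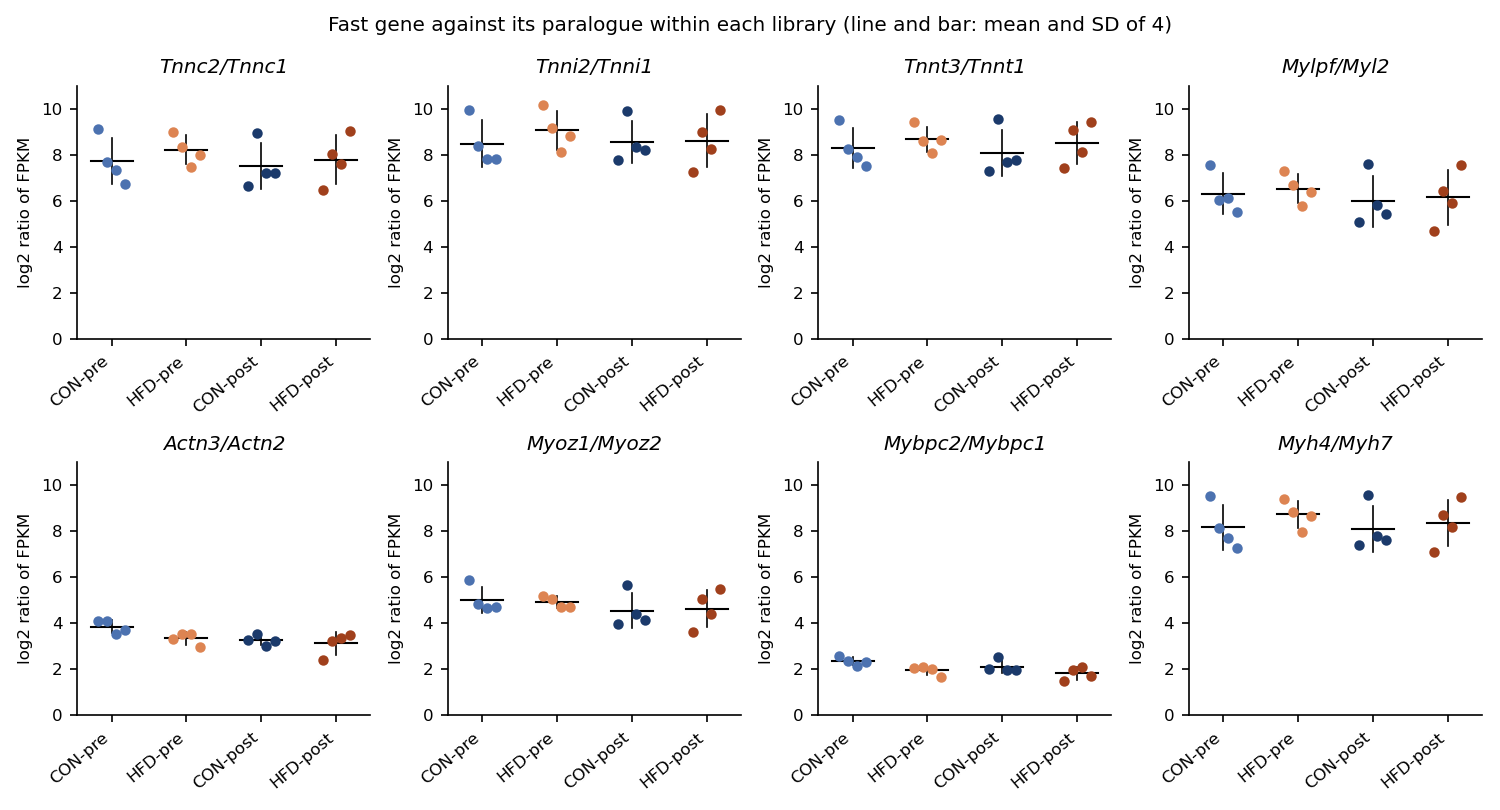
Log2 ratio of the FPKM of each fast gene to its paralogue (vertical axes, from 0) in every library; points are libraries and the line and bar are the mean and SD of 4. Every ratio is above 0, and in Mybpc2/Mybpc1 the HFD-pre points (mean 1.95) lie below the CON-pre points (mean 2.34).

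Across the 16 libraries the members fell into sets that varied against each other. The 8 genes other than Myh1 and Myh2 were positively correlated in all 28 pairs, with Pearson r from 0.21 to 0.95 (median 0.60) on the log2 scale. Myh2 was negatively correlated with each of these 8 genes (-0.80 to -0.33), and so was Myh1 (-0.55 to -0.10). After the mean of each group was subtracted the ranges were 0.093 to 0.91, -0.73 to -0.15 and -0.59 to -0.044. Without the 2 libraries farthest from the median of the first gene of a pair, they were -0.036 to 0.89 (27 of 28 pairs positive, not Mylpf with Tnni2), -0.67 to -0.19 and -0.35 to 0.31, where Myh1 with Tnni2 had turned positive. The correlations are a description: all genes of a library share its scaling, HFD-post replicate 1 is an extreme of many of them, and no p-value is given.

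The closest pair was Mylpf and Tnnc2 (Pearson r = 0.95, Spearman rho = 0.90, n = 16 libraries), and r was 0.89 without the 2 libraries farthest from the median of Mylpf. Actn3 and Myh4 followed each other at r = 0.85 (rho = 0.81, and 0.66 without the 2 farthest libraries). The most opposed pair was Mylpf and Myh2 at r = -0.80 (rho = -0.78, and -0.61 without the 2 farthest libraries). Myh1 and Myh2, neighbours in the genome and the most similar in coding sequence, had r = 0.52 (rho = 0.48).

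**Figure D5:**
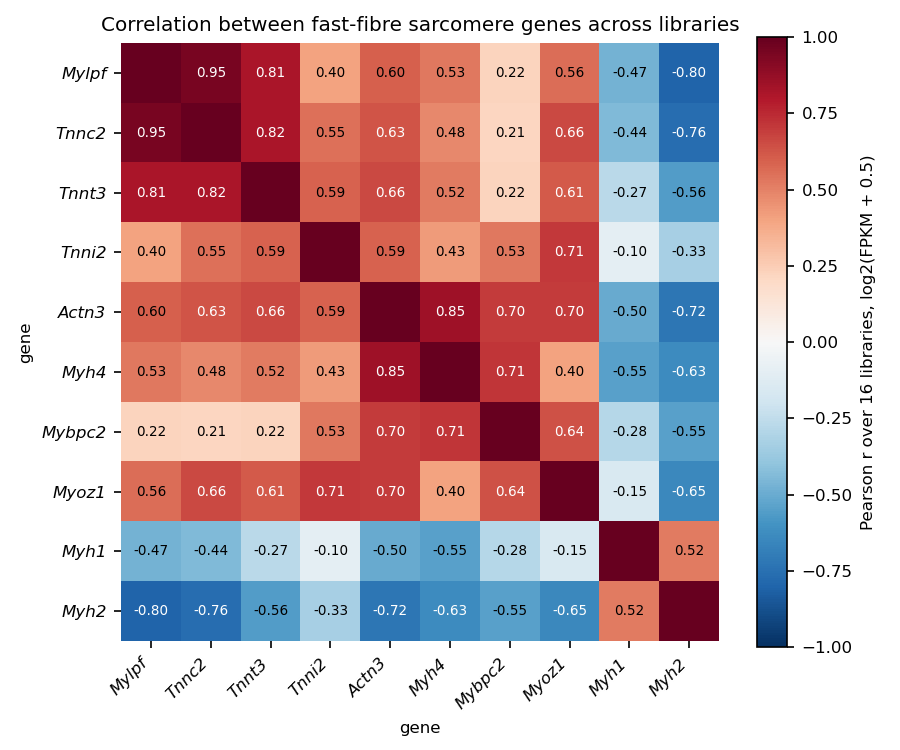
Pearson correlation of log2(FPKM + 0.5) between the genes over the 16 libraries, from blue (-1) to red (1), with genes on both axes. The 8 genes at the upper left are red among themselves, and Myh1 and Myh2 are blue against them and red with each other (0.52).

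Of 5270 genes that averaged 5 FPKM or more, those most like the mean profile of the 10 members over the 16 libraries (Pearson r) were Klhl22 (0.85), Pvalb (0.84), which encodes the calcium buffer parvalbumin of fast fibres, Mpst (0.80), N6amt2 (0.79) and the glycolytic enzyme gene Tpi1 (0.78). The least like were P2ry2 (-0.82), Eci2 (-0.80), an enzyme of fatty acid oxidation, and Epas1 (-0.78), a hypoxia-inducible factor. The genes most like Myh2 were Myom3 (0.93), an M-band protein, Smtnl1 (0.90), Nnt (0.88), the slow myosin-binding protein C gene Mybpc1 (0.87) and Casq2 (0.87), the slow and cardiac calsequestrin. With the slow-fibre marker score of a library, Myh2 had r = 0.50 (rho = 0.52), r = 0.40 without the 2 libraries farthest from the median score, and r = 0.78 after the group means were subtracted. The other 9 members had r from -0.38 (Mylpf) to 0.12 (Myh4) with that score. After the group means were subtracted these were -0.70 for Mylpf, -0.63 for Tnnc2, -0.62 for Myoz1 and -0.38 to 0.13 for the others.

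Other sarcomere and fast-fibre genes were read in the same fit. Of 13 other fast-fibre genes tested, 5 fell and 0 rose with exercise over both diets, where 0.915% of all genes fell. They were Casq1, the fast calsequestrin (log2 fold change -0.32 ± 0.059, limma, adjusted p = 0.00546), Myl1, the fast essential light chain (-0.31 ± 0.062, adjusted p = 0.00948), Pgam2, a muscle glycolytic enzyme (-0.32 ± 0.061, adjusted p = 0.00682), Sypl2, a triad membrane protein (-0.29 ± 0.056, adjusted p = 0.00720), and Myoz3 (-0.23 ± 0.051, adjusted p = 0.0158). The median of the 13 was -0.20, beside 0.014 over all genes tested and 0.0040 over the 10 members (0.043 without HFD-post replicate 1). Over all alternatives the median of the members lay between -0.045 (adipocyte score as a covariate) and 0.050 (quantile normalization). Myl1 also fell in CON-post against CON-pre (-0.39 ± 0.088, limma, adjusted p = 0.0397), and 0 of these genes passed in HFD-post against HFD-pre or in HFD-pre against CON-pre (limma). At an unadjusted p under 0.05, 7 of the 13 were lower and 0 higher in the first, beside 3.22% of all genes lower and 8.5% higher. In the second, 3 of the 13 were lower and 1, Mybph (log2 fold change 0.78 ± 0.20, limma, adjusted p = 0.134), was higher, beside 5.76% lower and 2.5% higher.

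Of 20 general sarcomere genes, 5 rose with exercise over both diets and 0 fell, where 2.95% of all genes rose: Lmod2, a leiomodin of thin filament ends (log2 fold change 1.15 ± 0.14, limma, adjusted p = 0.000173), the Z-disc genes Flnc (0.92 ± 0.12, adjusted p = 0.000317), Actn2 and Pdlim5, and Des, the desmin of intermediate filaments. Of 9 slow sarcomere genes tested, 0 passed in any comparison (limma). At most 1 of the 9 in a comparison had an unadjusted p under 0.05, Mybpc1. With exercise over both diets its values were 0.24 ± 0.077 (log2 fold change, limma) and an adjusted p of 0.101, and 9 of 9 slow genes had higher means. In HFD-pre against CON-pre, 8 of the 9 slow genes had lower means and Mybpc1 a higher mean. The median of the 9 was -0.50, beside -0.18 for the fast members. Of 6 developmental sarcomere genes tested, 0 passed, and the lowest adjusted p was that of Actc1 (0.0637, limma, exercise over both diets), 1 gene with an unadjusted p under 0.05.

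Among 28 regulators of fibre type, Ppargc1a, the coactivator of oxidative genes, rose in CON-post against CON-pre (log2 fold change 1.98 ± 0.19, limma, adjusted p = 4.38e-05) and in HFD-post against HFD-pre (2.10 ± 0.19, adjusted p = 2.87e-05), and so did Vgll2, a muscle cofactor of TEAD factors (0.94 ± 0.18 and 0.98 ± 0.18, adjusted p = 0.0119 and 0.0221). Of all genes tested, 1.11% and 0.542% passed in these comparisons. Over both diets Hdac5, Myf6 and Nfatc1 also rose, and Mef2c and Six4 fell, where 2.95% of all genes rose and 0.915% fell. None of the 28 passed in HFD-pre against CON-pre (limma; 1 was lower and 0 higher at an unadjusted p under 0.05, beside 5.76% of all genes lower and 2.5% higher) or with diet over both exercise states (5 were lower and 0 higher, beside 6.54% lower and 3.89% higher). The fast sarcomere genes themselves did not pass the test in any of these comparisons.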

How the data were processed

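The authors prepared stranded mRNA libraries, trimmed the reads, aligned them with TopHat and estimated expression with Cufflinks; versions are not given in the sources used here. They deposited FPKM for each library, which are not read counts and carry no depth, so no count model was used. Of 24487 entries, 27 with dates in place of names, which held 0.0771% of all FPKM, were not used, and 260 symbols with several entries were summed, none of them a member. No column of sample values was left unused (0).

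Values were tested as log2(FPKM + 0.5), for genes averaging 0.5 FPKM or more, with limma 3.58.1 (R 4.3.3), a mean-variance trend and 1 fit of the 4 groups without covariates, adjusted by Benjamini-Hochberg over 11256 genes. A fold change on this scale understates that of low genes. For shares and ratios, two-sided exact permutation tests were run in SciPy 1.17.1. The code was tested on simulated data. The members, gene lists, tests and named genes (all members, their paralogues, genes of the lists that passed or had the lowest p, and genes most like the members) were chosen with earlier results of these data known. Alternatives were other pseudocounts, filters and scalings, a fit of the compared groups, no trend, array weights, a replicate block, marker scores as covariates and each library left out.

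Libraries were grouped by their titles. The labels name mm9, but 692 of 692 loci in the study's supplementary table lay on their gene in GRCm38 and 114 in mm9 (GENCODE M1), so positions are from RefSeq GRCm38.p6. GENCODE M1 transcripts were used for shared 50-base windows and coding identity (Biopython 1.88), with no coordinates taken. Proteins were not analysed here.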

Additional observations from a re-analysis of the deposited data

Results flagged for a closer look

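Of 88 groups of 4 libraries examined (FPKM, heavy chain shares and paralogue ratios of the fast sarcomere genes), 7 held a library whose gap to the nearest of the others exceeded Dixon's critical value as a share of the group's range; chance gives about 1 such group in 20. In HFD-post replicate 1, Myh2 was at 631 FPKM (others 316 to 338) and at 7.73% of heavy chain FPKM (others 3.46 to 3.73%), and Myoz1 was at 1058 FPKM (others 1240.3 to 1274). The log2 ratio of Myoz1 to Myoz2 was 5.86 in CON-pre replicate 1 (others 4.65 to 4.82). The log2 ratio of Mybpc2 to Mybpc1 was 1.66 in HFD-pre replicate 4 (others 2.01 to 2.08) and 2.53 in CON-post replicate 2 (others 1.95 to 1.99). In CON-post replicate 2 the log2 ratio of Myh4 to Myh7 was 9.58 (others 7.42 to 7.78). CON-pre replicate 1 and CON-post replicate 2 also had the lowest summed slow-fibre markers of their groups, at 179 and 156 FPKM, and HFD-post replicate 1 the highest of its group, at 670.4 FPKM; the part of slow fibres in these values was not tested.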

How the results depend on the processing

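Of 1480 recomputed log2 fold changes of members in 5 comparisons, 1415 kept their direction and their side of the threshold, 4 passed it and 61 turned or reached 0. In HFD-pre against CON-pre all 10 genes kept their direction without each library in turn. None of the values that turned passed the threshold. The 4 that passed were 3 for Mylpf with exercise over both diets (1 member called with upper-quartile scaling; 0 to 1 without each library) and Myh2 with diet over both exercise states (1 called with the slow-fibre score as a covariate); the cause was not tested. Differences in shares and ratios moved by less than the spread between libraries (1 SD) in each of their alternatives. Same-numbered libraries of the groups were not treated as pairs (correlations of their deviations -0.22 to 0.21). With 4 libraries per group these correlations cannot exclude a shared condition behind the numbers. With the replicate block 0 members passed in any comparison.

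Quantile normalization gives genes at the highest ranks nearly the same value in every library. With it the median log2 fold change of the members was -0.035 in HFD-pre against CON-pre, 0.024 in CON-post against CON-pre, -0.00045 in HFD-post against CON-post, -0.016 with diet and 0.021 for the interaction. Single values became 0.027 for Tnnc2 and 0.010 for Mylpf in HFD-pre against CON-pre, and 0.013 and 0.0051 with diet. In CON-post against CON-pre they became 0 for Tnnc2, Tnnt3 and Actn3, 0.010 for Myh4, 0.037 for Tnni2, 0.11 for Myoz1 and 0.044 for Mybpc2. They were 0.021 (Myh4) and 0.032 (Tnnt3) in HFD-post against HFD-pre, and 0.015 (Myh4), 0.016 (Tnnt3) and 0.030 (Actn3) with exercise over both diets.

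Scaling to equal sums gave medians of -0.097 in HFD-pre against CON-pre and -0.078 with diet, 0.033 for Tnni2 and 0.028 for Mybpc2 in CON-post against CON-pre, and 0.0062 for Actn3 with exercise. Median-of-ratios scaling gave 0.0037 for Tnni2 in CON-post against CON-pre and -0.0014 for Myoz1 with exercise. Upper-quartile scaling gave a median of -0.046 in HFD-post against HFD-pre, with -0.024 for Tnni2 and -0.017 for Actn3, and -0.026 for Tnni2 and -0.030 for Myoz1 with exercise. The adipocyte score as a covariate gave a median of -0.045 in HFD-post against HFD-pre, with 0.0044 for Myh1, -0.036 for Tnni2 and -0.054 for Actn3, and -0.026 for Tnni2 and -0.027 for Myoz1 with exercise. The slow-fibre score gave 0.0011 for Actn3 with exercise.

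Without each library in turn, the log2 fold changes were -0.063 to 0.068 for Tnni2 and -0.041 to 0.047 for Mybpc2 in CON-post against CON-pre. In HFD-post against HFD-pre they were -0.080 to 0.079 for Myh1, -0.030 to 0.37 for Myh2 (lowest without HFD-post replicate 1), -0.11 to 0.020 for Myh4, -0.0050 to 0.10 for Tnni2 and -0.016 to 0.16 for Actn3. They were -0.011 to 0.072 for Myh1 with diet, and -0.011 to 0.054 for Tnni2, -0.039 to 0.048 for Actn3 and -0.0071 to 0.046 for Myoz1 with exercise. The median over the members was -0.16 to -0.029 in HFD-post against CON-post and 0.016 to 0.17 for the interaction. FPKM does not show the reads behind a value, so the depth that limits these differences is unknown.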
